A study of Epimedium pubescens with 12 samples.

Results

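The comparison was of E. pubescens leaves after 30 d without phosphorus (30d -P) with leaves after 30 d of normal phosphorus supply (30d +P), across every gene of the deposited count table. It rests on 6 of the 12 leaf libraries of the series, chosen by their labels alone, with replicates A, B and C in each group. The leaves came from seedlings grown in sand pots in a growth chamber and watered with Hoagland-type solution with 0 mmol/L phosphate (30d -P) or 1 mmol/L phosphate (30d +P). Both groups had first been acclimated in the same dilute Hoagland solution. The study gives the -P and +P solutions different salts of K, Na, sulfate and nitrate, so lack of phosphate and these differences cannot be told apart. The study calls 30 d the early stage of phosphorus deficiency, with no visible damage. Each treatment had 3 replicates of several seedlings, and how many plants went into 1 library is not given in the sources used here. The table listed 53813 genes, 44721 from the reference annotation and 9092 assembled by the authors, and 18207 of them had no read in the 6 libraries.

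Plants take up phosphorus as inorganic phosphate through PHT1 transporters, load it into the xylem through PHO1 proteins and sense it through proteins with an SPX domain. Leaves short of phosphate are known, mostly from Arabidopsis and rice, to induce SPX and PHT1 genes, secreted purple acid phosphatases and enzymes that replace membrane phospholipids by galactolipids and sulfolipids. They also tend to store starch and to make flavonoids. The gene names below are the closest Swiss-Prot entries that the authors assigned, often from other species, so a role stated here is that of the named protein in the species where it was studied.

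Each of the 6 libraries held 15274059 to 16654942 counted reads, and replicates of 1 group differed more than the groups did for many genes. The first principal component, with 41.2% of the variance of log2 CPM, did not follow phosphorus: the scores were 77.4, 4.32 and -47.1 in 30d -P and -94.7, 30.7 and 29.4 in 30d +P. The second, with 25.9%, separated the groups, with scores of 29.7, 55.6 and 44.6 in 30d -P and -27.8, -53.4 and -48.6 in 30d +P. Library 30d +P A stood apart from the other +P libraries, with Pearson correlations of 0.906 and 0.909 to them across genes, where they correlated at 0.975 with each other. It was closer to 30d -P C (0.931) than to either +P library, and these 2 libraries lie at the low end of the first component. CPM (counts scaled to library size in edgeR, with TMM factors) are the values given per library. For a difference at 30 d, edgeR's p-values use a spread per gene estimated from all 12 libraries of the series. The standard errors (SE) were derived from the same test and are approximate. Each is the size of the log2 fold change divided by the square root of the test statistic (F). The spread among the 6 libraries at 30 d can therefore be wider or narrower than an SE implies. In whole leaves, fewer cells of a type and less RNA per cell cannot be told apart.

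**Figure D1:**
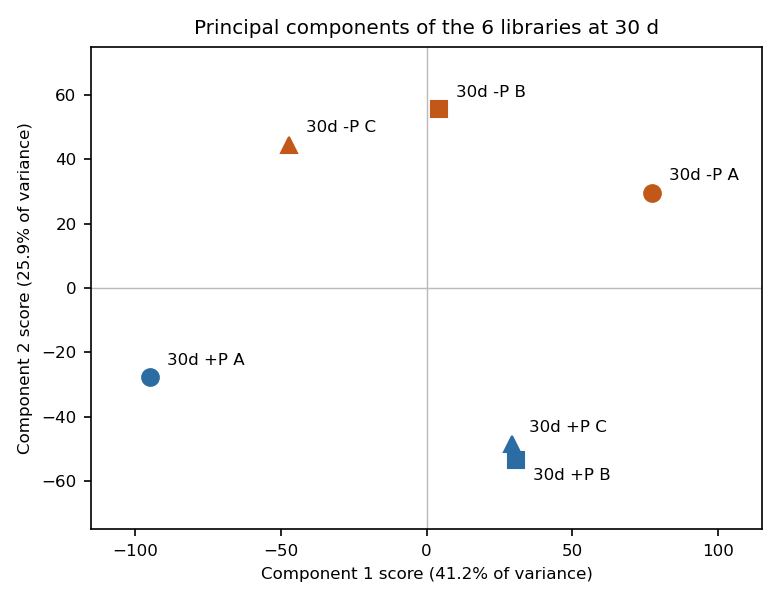
Scores of the 6 libraries at 30 d on the first (x axis) and second (y axis) principal component of log2 CPM, orange for 30d -P and blue for 30d +P, with a circle for replicate A, a square for B and a triangle for C. The first component spreads replicates within each group, from -47.1 to 77.4 in 30d -P and from -94.7 to 30.7 in 30d +P, and the second puts all 3 30d -P libraries above 0 and all 3 30d +P libraries below it.

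Genome-wide, no gene passed edgeR's adjusted threshold. The quasi-likelihood test called 0 of 24307 genes higher (0%) and 0 lower (0%) in 30d -P leaves at an adjusted p of at most 0.05 and a 2-fold difference, and the smallest adjusted p was 0.610. Without adjustment, at p under 0.05 and 2-fold, edgeR gave 435 genes higher (1.79%) and 745 lower (3.06%). DESeq2 on the 6 libraries called 224 of 24774 genes higher (0.904%) and 345 lower (1.39%), of which 171 and 288 were also in edgeR's unadjusted sets. edgeR's biological coefficient of variation over all 12 libraries was 0.5997, a measure of how far replicates differ beyond counting error. Values of the 3 libraries of each group did not overlap for 1657 genes higher (6.82%) and 2028 lower (8.34%) in 30d -P. More genes were lower than higher by each of these counts other than edgeR's adjusted one, where both were 0.

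The DESeq2 calls depended on single libraries. Without 30d -P B, DESeq2 called 67 higher and 200 lower, and without 30d +P A it called 297 higher and 584 lower. Of the calls on 6 libraries, 47 higher and 113 lower were made again with each library left out in turn. Among the 224 genes called higher, 30d -P C had the lowest of the 3 -P values in 133 (59.4%), against 34.2% of all genes tested. Among the 345 called lower, 30d +P A had the highest of the 3 +P values in 175 (50.7%), against 39.4% of all genes tested. The part of these libraries in the calls was not tested further.

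Among the 8 genes higher in 30d -P with the smallest edgeR p, 1 encodes a membrane electron carrier and 2 encode enzymes that make wall polysaccharides. Ebr03G007060 (chromosome 3, 50813694 to 50815909), a cytochrome b561 protein with a DOMON domain of a family that carries electrons from ascorbate across membranes, had 220.4, 369 and 203 CPM in 30d -P, against 105, 86.8 and 106 CPM in 30d +P. All 3 -P libraries were above all 3 +P libraries, B most of all, with a log2 fold change of 1.41 ± 0.24 (SE) and an edgeR unadjusted p of 0.00013. DESeq2 gave an adjusted p of 0.0012 (0.00039 to 0.026 with a library left out). Ebr03G054920 (chromosome 3, 449402120 to 449405431), named as CSLC12, of the family that builds the xyloglucan backbone in Arabidopsis, had 26.1, 29.9 and 3.44 CPM in 30d -P, against 0.264, 0.525 and 0.668 CPM in 30d +P. Here 30d -P C was far below 30d -P A and B, yet still above every +P library, and the log2 fold change was 5.33 ± 1.02 (SE) (DESeq2 adjusted p 1.4e-07, 2.1e-24 to 0.0004 with a library left out). Ebr04G003120 (chromosome 4, 17462678 to 17468583), named as CSLD2, of the cellulose synthase-like family, had 73.4, 105 and 46.3 CPM in 30d -P, against 16.4, 18.4 and 21.7 CPM in 30d +P. Its groups differed by 1.99 ± 0.36 (SE) on the log2 scale, and between 1.69 and 2.24 with a library left out.

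The other genes of this set act in signalling and protein turnover. Ebr02G040390 (chromosome 2, 347911183 to 347944296), a 14-3-3 protein named as rice GF14-C, of a family that binds phosphorylated partner proteins, had 30.8, 22.3 and 16.4 CPM in 30d -P, against 0.527, 0.750 and 1.27 CPM in 30d +P. The groups were far apart in every library, with a log2 fold change of 4.76 ± 0.90 (SE) and the smallest DESeq2 adjusted p among the 8 genes, 3.5e-18 (6.1e-17 to 2.5e-11 with a library left out). Ebr01G068400 (chromosome 1, 587844616 to 587846665), named as PP2C25, a protein phosphatase that acts on MAP kinases in Arabidopsis, had 17.6, 76.3 and 17.2 CPM in 30d -P, against 2.57, 3.45 and 6.54 CPM in 30d +P. The -P mean rested largely on library B, and the log2 fold change of 3.14 ± 0.65 (SE) lay between 2.07 and 3.63 with a library left out. Ebr03G022510 (chromosome 3, 175606868 to 175607224), named as the calcium-binding EF-hand protein KRP1, had 25.8, 52.4 and 12.1 CPM in 30d -P, against 0.659, 1.72 and 1.00 CPM in 30d +P, at a log2 fold change of 4.73 ± 0.95 (SE) (DESeq2 adjusted p 3.6e-10, 6.2e-15 to 4.1e-06 with a library left out). The aspartic proteases Ebr01G032340 (chromosome 1, 286012058 to 286013350), named as PCS1, and Ebr03G032410 (chromosome 3, 253525199 to 253526758), named as the guard cell protease ASPG1, differed by 2.38 ± 0.47 (SE) and 2.37 ± 0.52 (SE) on the log2 scale. PCS1 had 218, 209 and 73.1 CPM in 30d -P, against 28, 31.6 and 36.1 CPM in 30d +P, so the -P values were again lowest in library C. ASPG1 had 11.6, 31 and 6.12 CPM in 30d -P, against 2.31, 3.90 and 3.21 CPM in 30d +P, with the highest value in library B; its DESeq2 adjusted p was 0.016 (0.00038 to 0.25 with a library left out).

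Of the 8 genes lower in 30d -P with the smallest edgeR p, the wall-loosening protein expansin-A8 had the widest gap. Ebr01G040380 (chromosome 1, 356441331 to 356442493) had 2, 0 and 2 counts (0.144, 0 and 0.128 CPM) in 30d -P leaves, against 21.7, 136 and 128 CPM in 30d +P leaves. It was near 0 in each -P library and high in each +P library, with the lowest +P value in A, and its fitted log2 fold change of -9.93 depends on edgeR's prior count and is no bound. Ebr03G049770 (chromosome 3, 402365573 to 402367902), a carbonic anhydrase, which interconverts carbon dioxide and bicarbonate, had 2.65, 2.35 and 6.18 CPM in 30d -P, against 20.6, 24.5 and 22.8 CPM in 30d +P. The 3 +P values lay close together and well above the -P values, at a log2 fold change of -2.60 ± 0.43 (SE) and an edgeR unadjusted p of 0.00011 (DESeq2 adjusted p 9.8e-06, 1.0e-16 to 0.0019 with a library left out).

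A pair of the genes resemble cell-surface receptors. Ebr04G039560 (chromosome 4, 309486333 to 309489826), a putative leucine-rich repeat receptor-like kinase, had 2.30, 2.29 and 1.47 CPM in 30d -P, against 11.7, 6.15 and 8.61 CPM in 30d +P. Ebr05G001890 (chromosome 5, 9250522 to 9253092), named as the tomato xylanase receptor EIX1, had 0.287, 0.196 and 0.255 CPM in 30d -P, against 11.4, 3.67 and 2.27 CPM in 30d +P. Their log2 fold changes were -2.13 ± 0.31 (SE) and -4.51 ± 0.82 (SE), and both had their highest +P value in library A. The same library was highest for Ebr06G019870 (chromosome 6, 150077920 to 150084866), an RNA-binding protein named after a frog protein, with 0.215, 0.261 and 0.255 CPM in 30d -P, against 17.2, 3.60 and 5.07 CPM in 30d +P. It was also highest for an assembled gene (chromosome 5, 339168636 to 339171504), named as the vacuolar sorting protein VPS3, with 0.789, 0.196 and 0.638 CPM in 30d -P, against 20.7, 6.67 and 10.9 CPM in 30d +P. Without +P A their log2 fold changes were -4.11 and -4.00, against -5.10 and -4.54 with it. Ebr02G051200 (chromosome 2, 434149493 to 434151078) and Ebr01G048490 (chromosome 1, 418261255 to 418295559) carried no Swiss-Prot name and differed by -1.85 ± 0.35 (SE) and -2.25 ± 0.44 (SE) on the log2 scale.

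**Figure D2:**
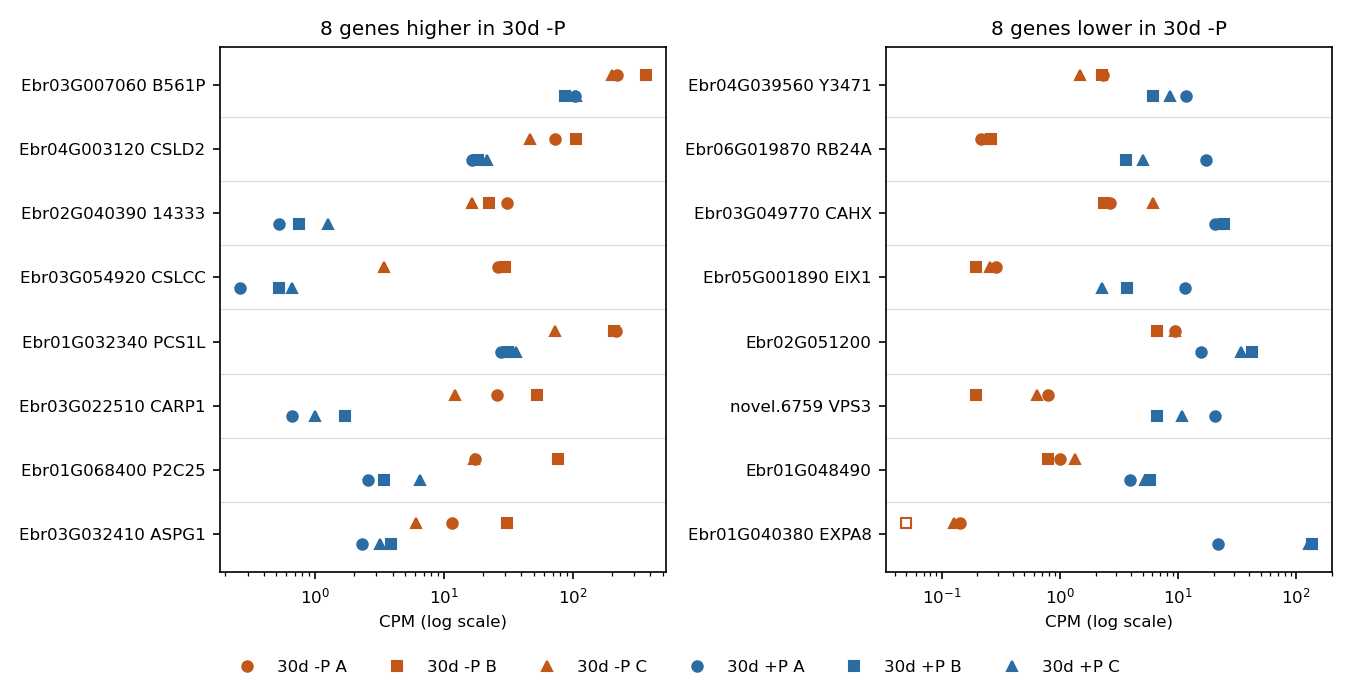
CPM (x axis, log scale) of the 8 genes higher (left) and the 8 lower (right) in 30d -P with the smallest edgeR p by the rule for named genes, 1 row a gene, each point 1 library (orange 30d -P above, blue 30d +P below) and an open mark at the left edge for a library with 0 counts. The rule asks for groups that do not overlap, so what the plot adds is the spread: 30d -P C is the lowest -P library in all 8 genes on the left, and 30d +P A the highest +P library in 4 of the 8 on the right.

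Of the genes that move and sense phosphate, none was called in either direction by edgeR or, with all 6 libraries, by DESeq2. With a library left out DESeq2 called 0 to 1 higher and 0 to 2 lower. The annotation names 56 PHT1, PHO1, SPX and PHO2-type genes, 21 of which passed the count filter, with a median log2 fold change of -0.19 against -0.01 for all genes tested. The sign of that median turned without 30d +P A, to 0.12. At an unadjusted p, 0 were higher and 1 was lower (0% and 4.76%, against 1.79% and 3.06% of all genes). The most abundant member was Ebr02G025260, named as the uptake transporter PHT1-4, with 240.1, 340.0 and 325 CPM in 30d -P, against 339, 277 and 284 CPM in 30d +P. The groups overlapped throughout, and the log2 fold change was 0.01 ± 0.53 (SE). The study's FPKM, which divide by gene length, give the order of levels between genes: PHT1-4 averaged 148 FPKM in 30d -P and 145 FPKM in 30d +P. Next came the PHO1 homolog Ebr03G045300 with 81.8 FPKM in 30d -P and 55.8 FPKM in 30d +P, and then the SPX genes Ebr06G027380 with 47.8 FPKM in 30d -P and 50.1 FPKM in 30d +P and Ebr05G012830 with 59.8 FPKM in 30d -P and 33.6 FPKM in 30d +P.

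SPX and PHO1 genes varied as much within as between the groups. Ebr05G012830, named as SPX1, an inhibitor of the phosphate-response factor PHR1 in Arabidopsis, had 12.2, 53.5 and 119 CPM in 30d -P, against 64.3, 22.3 and 17.7 CPM in 30d +P. Its highest value was in 30d -P C and its lowest in 30d -P A, so the +P range lay inside the -P range. Ebr06G027380, named as SPX2, had 39.2, 58.4 and 95.1 CPM in 30d -P, against 84.5, 65.7 and 52.5 CPM in 30d +P. The second SPX2 gene Ebr02G060760 had 12.6, 19.3 and 31.7 CPM in 30d -P, against 22.9, 18.4 and 26.1 CPM in 30d +P, each lowest in A and highest in C within 30d -P, with no separation of the groups. The PHO1 homolog Ebr03G045300 had 213, 200.004 and 252 CPM in 30d -P, against 204, 129 and 126 CPM in 30d +P; +P A was level with the -P libraries, and the log2 fold change was 0.54 with it and 0.80 without it. Its neighbour Ebr03G045260 was the class's 1 gene lower at an unadjusted p, with 9.26, 7.39 and 3.63 CPM in 30d -P, against 15, 13.7 and 16 CPM in 30d +P and a log2 fold change of -1.14 ± 0.48 (SE) (DESeq2 adjusted p 0.16, 0.034 to 0.51 with a library left out). Another neighbour, Ebr03G045320, had 75.3, 48.6 and 18.8 CPM in 30d -P, against 22.1, 23.1 and 50.01 CPM in 30d +P, so these adjacent copies did not share 1 pattern. How reads shared between such copies were counted is not given in the sources used here. Ebr03G015390, named as PHO2 (UBC24), the ubiquitin-conjugating enzyme that removes phosphate transporters in Arabidopsis, had 24.8, 20.3 and 29.4 CPM in 30d -P, against 33.7, 28.9 and 38.7 CPM in 30d +P. The vacuolar-type SPX membrane protein Ebr02G027230 had 29.1, 23.9 and 33.5 CPM in 30d -P, against 37.4, 10.7 and 24 CPM in 30d +P. Their groups overlapped in at least 1 library.

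Purple acid phosphatases, which release phosphate from organic esters, had members in both directions. Of 55 named genes, 31 were tested, with a median log2 fold change of -0.0006. edgeR gave 0 higher and 3 lower at an unadjusted p (0% and 9.68%, against 1.79% and 3.06% of all genes). DESeq2 called none with all 6 libraries but 3 lower without 30d +P A, 1 lower without 30d +P C and 1 higher without 30d -P A. Ebr02G039170, named as PAP3, had 5.31, 25.6 and 19.2 CPM in 30d -P, against 25.8, 108 and 73.1 CPM in 30d +P. Both +P B and C stood far above every -P library, while +P A was only just above -P B, and the log2 fold change was -2.04 ± 0.87 (SE). A second PAP3 gene, Ebr06G047170, was the most abundant of the class with 109, 129 and 114 CPM in 30d -P, against 347, 208 and 148 CPM in 30d +P, the +P values all above the -P values and A highest. Ebr01G031330, also named as PAP3, had 1.51, 62 and 215 CPM in 30d -P, against 79.4, 20.8 and 18.5 CPM in 30d +P, from near 0 in -P A to the top value in -P C. These PAP3 copies therefore ran in different directions across the same libraries. PAP26 (Ebr04G074700), the main vacuolar and secreted acid phosphatase of Arabidopsis, had 183, 162 and 138 CPM in 30d -P, against 136, 153 and 169 CPM in 30d +P, and the groups overlapped. PAP29 (Ebr04G019090) and PAP1 (Ebr02G035920) lay within 41.7 to 56 CPM in every library. Ebr03G047280, named as a probable inactive PAP2, was higher in every -P library, with 89.3, 83.5 and 82 CPM in 30d -P, against 59.3, 41.7 and 48.1 CPM in 30d +P. Its DESeq2 adjusted p was 0.041 (0.0013 to 0.22 with a library left out), but its log2 fold change of 0.77 ± 0.24 (SE) was below the 2-fold minimum, so it was not called. Ebr04G074430, named as a sweet potato purple acid phosphatase 2 and not as the Arabidopsis PAP2, had 31.6, 35.6 and 21.7 CPM in 30d -P, against 35.9, 38.6 and 47.8 CPM in 30d +P. Its groups stayed apart by a narrow margin, at a log2 fold change of -0.46 ± 0.21 (SE), below the 2-fold minimum.

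**Figure D3:**
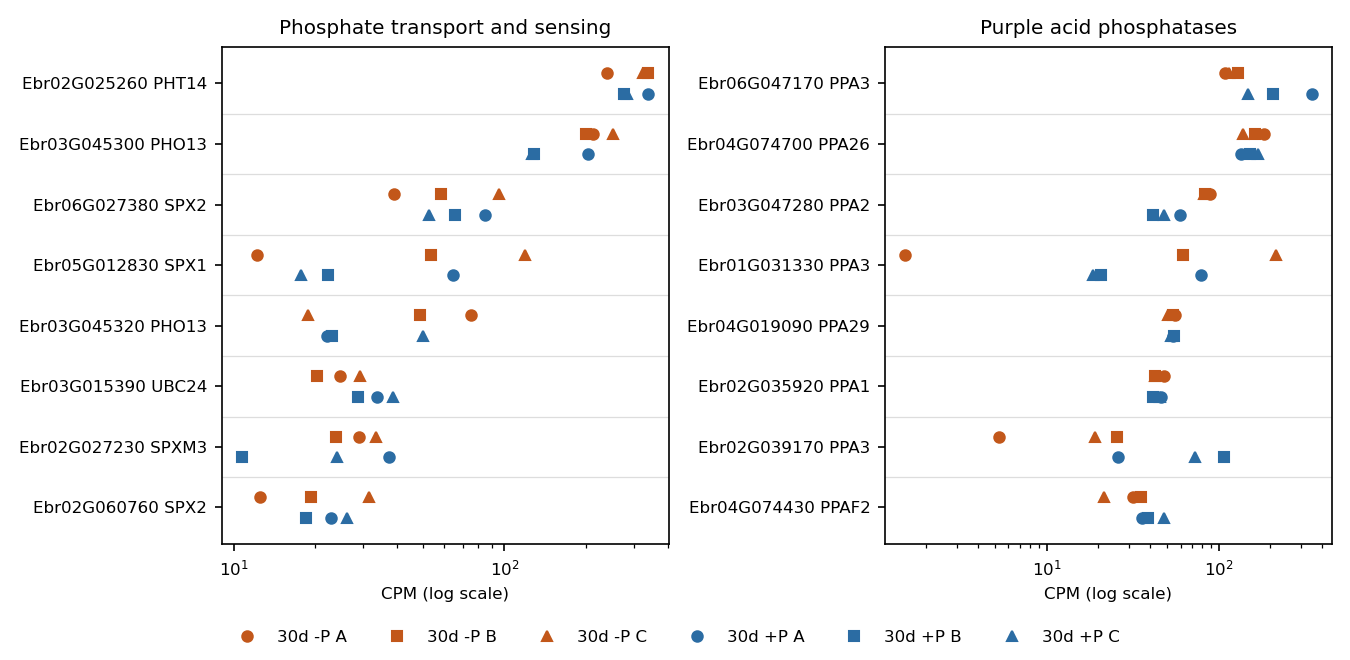
CPM (x axis, log scale) of the phosphate transport and sensing genes (left) and purple acid phosphatases (right) with a mean of at least 20 CPM, 1 row a gene from high to low mean, each point 1 library (orange 30d -P above, blue 30d +P below). The -P and +P points overlap in all 8 genes on the left, and PHT1-4 lies between 240.1 and 340.0 CPM in all 6 libraries.

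Enzymes that exchange membrane phospholipids for lipids without phosphorus showed a median log2 fold change of 0.05 over 31 tested genes of 84. They held 0 higher and 1 lower at an unadjusted p (0% and 3.23%, against 1.79% and 3.06% of all genes). DESeq2 called 1 lower (3.03%, against 1.39% of all genes). It was an assembled phospholipase D gene (chosen after its values were seen, chromosome 1, 218506142 to 218507750) with 0.215, 0 and 0 CPM in 30d -P, against 4.61, 4.57 and 1.27 CPM in 30d +P. The most abundant member, phospholipase D alpha 1 (Ebr05G012730), which cleaves the head group of phospholipids, had 482, 519 and 539.9 CPM in 30d -P, against 717, 509 and 539 CPM in 30d +P. A second copy, Ebr02G060690 (chosen after its values were seen), had 226, 302 and 166 CPM in 30d -P, against 104, 119.8 and 144 CPM in 30d +P, with no overlap and a log2 fold change of 0.91 ± 0.38 (SE), below the 2-fold minimum. Genes for bypasses that save phosphate and for recycling nucleic acids, which include phosphoenolpyruvate carboxylase, pyrophosphate-dependent phosphofructokinase and nucleases, had a median of 0.44 over 26 tested genes of 42, between 0.38 and 0.68 with a library left out. Of these, 76.9% were above 0, against 49.3% of all genes tested, and 5 were higher without overlap (19.2%, against 6.82% of all genes), yet none reached 2-fold at an unadjusted p. The phosphoenolpyruvate carboxylase Ebr05G042000 (chosen after its values were seen) had the smallest p of these, with 118, 79.7 and 72.6 CPM in 30d -P, against 27.4, 56.8 and 61.8 CPM in 30d +P and a log2 fold change of 0.89 ± 0.43 (SE). The most abundant copy, Ebr06G042180, had 196, 221 and 236 CPM in 30d -P, against 238, 214 and 259 CPM in 30d +P.

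Starch genes were higher in 30d -P more often than genes at large. Of 50 tested genes of 66, 70.0% had a log2 fold change above 0, against 49.3% of all genes, the median was 0.17, and 10 were higher without overlap (20%, against 6.82% of all genes). edgeR gave 2 higher and 0 lower at an unadjusted p (4% and 0%, against 1.79% and 3.06% of all genes), or 1 to 5 higher with a library left out. DESeq2 called 4 higher and 0 lower (8.16% and 0%, against 0.904% and 1.39% of all genes). With a library left out DESeq2 called 2 to 5 higher, the lowest without 30d -P B and without 30d +P C. The granule-bound starch synthase Ebr04G020730, which makes amylose, had 72.5, 211 and 143 CPM in 30d -P, against 72.2, 42.4 and 38.1 CPM in 30d +P, at a log2 fold change of 1.48 ± 0.45 (SE) in which +P A nearly reached -P A. Its neighbour Ebr04G020710, the most abundant starch gene, had 1186, 1051 and 738 CPM in 30d -P, against 1319.7, 556 and 565 CPM in 30d +P, with the highest value in +P A and the groups overlapping. All 4 genes called by DESeq2 were named as BAM3, the plastid beta-amylase that breaks starch down to maltose at night. The other 4 of the 8 tested BAM3 genes, at 0.0654 to 12.3 CPM in every library, had log2 fold changes between -2.12 and -0.05. The assembled copy (chromosome 4, 65267603 to 65270602, chosen after its values were seen) had 90.8, 79.2 and 90.3 CPM in 30d -P, against 42.1, 42.6 and 37.8 CPM in 30d +P. Isoamylase 3 (Ebr05G039130), a debranching enzyme, had 92.4, 63.1 and 50.8 CPM in 30d -P, against 34.8, 36 and 40.1 CPM in 30d +P. The glucan-phosphorylating enzyme GWD (Ebr03G055660) had 420.1, 273 and 226 CPM in 30d -P, against 166, 183 and 235 CPM in 30d +P. Both, chosen after their values were seen, were below 2-fold, with log2 fold changes of 0.90 ± 0.27 (SE) and 0.65 ± 0.29 (SE), and in both 30d -P A had the highest value.

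Sugar transporters leaned the other way, with a median of -0.23 over 54 tested genes of 140, 1 higher and 4 lower at an unadjusted p (7.41%, against 3.06% of all genes; 2 to 5 with a library left out). PLT5 (Ebr02G022240), a polyol and sugar-proton symporter, had 49.4, 51.8 and 43 CPM in 30d -P, against 93.8, 89.5 and 107 CPM in 30d +P, with a log2 fold change of -1.01 ± 0.22 (SE) and a DESeq2 adjusted p of 0.0003 (0.0003 to 0.0068 with a library left out). All -P values lay close together, well below the +P values. The hexose transporter MST6 (Ebr06G048210), the most abundant of the class, was instead higher in every -P library, with 175, 154 and 134 CPM in 30d -P, against 101, 113 and 108 CPM in 30d +P. Photosystem and light-harvesting genes took up much of each library, and their median was -0.18 over 92 tested genes of 145; it turned to 0.17 without 30d +P B, the library with the highest sum. Summed, they had 107631, 101261 and 124596 CPM in 30d -P, against 122075, 169356 and 112808 CPM in 30d +P. At an unadjusted p, 0 were higher and 3 lower (3.26%, near the 3.06% of all genes). The light-harvesting gene CB7 (Ebr04G064290) had 17.1, 8.69 and 9.69 CPM in 30d -P, against 25.8, 29.4 and 24.9 CPM in 30d +P, at a log2 fold change of -1.17 ± 0.31 (SE). The photosystem I subunit V gene Ebr03G000080 (chosen after its values were seen) had 446, 375 and 498 CPM in 30d -P, against 582, 1398 and 828 CPM in 30d +P. One of the Rubisco activase genes, Ebr01G048300, whose product reactivates the carbon-fixing enzyme, had 138, 211 and 300.3 CPM in 30d -P, against 533, 411 and 476 CPM in 30d +P and a log2 fold change of -1.13 ± 0.32 (SE). The far more abundant copy Ebr06G000760 had 7508, 6307 and 7657 CPM in 30d -P, against 9474, 9218 and 7174 CPM in 30d +P.

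Cell wall genes differed in both directions. Xyloglucan endotransglucosylase/hydrolase (XTH) genes, which cut and rejoin xyloglucan, had 3 of 17 tested genes higher at an unadjusted p (17.6%, against 1.79% of all genes) and 0 lower. The 5 genes that DESeq2 called higher (19.2%, against 0.904% of all genes) were all XTH22 copies. That class was small and its count at an unadjusted p was 2 to 7 with a library left out, lowest without 30d -P A and highest without 30d -P C. Expansins, which loosen walls during growth, had a median of -0.60 over 25 tested genes of 53, with 3 lower (12%, against 3.06% of all genes; 1 to 3 with a library left out). Their summed level followed the libraries more than the groups: 2023, 674 and 255 CPM in 30d -P, against 223, 2228 and 1933 CPM in 30d +P. The most abundant, an EXPA8 gene on chromosome 3 (Ebr03G068350), had 532, 68.2 and 19.8 CPM in 30d -P, against 12.1, 659 and 475 CPM in 30d +P, high in -P A, +P B and +P C and low in the other 3 libraries. On chromosome 1, 6 EXPA8 genes lie between 356441331 and 356713528 (a group chosen after its values were seen). In that row the first gene, Ebr01G040380, was near 0 in every -P library, whereas Ebr01G040450 had 275, 74.3 and 8.03 CPM in 30d -P, against 25.2, 245 and 212 CPM in 30d +P. Ebr01G040420 had 46.7, 25.1 and 3.51 CPM in 30d -P, against 13.9, 136 and 88.2 CPM in 30d +P. Ebr01G040390, next to Ebr01G040380, was low in all 6 libraries, with 0.359, 1.24 and 0.128 CPM in 30d -P, against 0.198, 3.30 and 2.07 CPM in 30d +P.

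Cellulose synthase and cellulose synthase-like genes had 3 of 59 tested genes higher and 8 lower at an unadjusted p (5.08% and 13.6%, against 1.79% and 3.06% of all genes). With a library left out, 5 to 9 were lower. DESeq2 called 2 higher and 7 lower (3.33% and 11.7%, against 0.904% and 1.39% of all genes). All the genes that DESeq2 called lower carry cellulose synthase-like names of the B, D, E and G groups, and none a CESA name. CSLG3 (Ebr04G072590) had 0.359, 0.392 and 0.128 CPM in 30d -P, against 1.85, 12.3 and 13.8 CPM in 30d +P, low in +P A as well as in 30d -P. Near it (chosen after its values were seen), Ebr04G072550 had 0.0718, 0.0654 and 0.0638 CPM in 30d -P, against 0.264, 76.8 and 46.4 CPM in 30d +P, so its difference rested on +P B and C alone. CSLB4 (Ebr06G053390, chosen after its values were seen) had 26.9, 9.41 and 18.1 CPM in 30d -P, against 89.1, 142 and 71.2 CPM in 30d +P, with every +P library above every -P library. The most abundant gene of the class, a cellulose synthase catalytic subunit (Ebr05G035820), had 1605, 1500.1 and 1653 CPM in 30d -P, against 1216, 1176 and 1561 CPM in 30d +P, and the groups overlapped. Pectin enzymes, with 83 tested genes, had a median of 0.26 (-0.03 to 0.38 with a library left out). They had 1 gene in each direction at an unadjusted p (1.20% each, against 1.79% and 3.06% of all genes). Their most abundant member, the pectinesterase Ebr02G026620, ran from 1722 to 7799 CPM within 30d -P, against 3432 to 4244 CPM in 30d +P.

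Phenylpropanoid and lignin genes had a median of 0.16 over 145 tested genes, with 4 higher and 9 lower at an unadjusted p (2.76% and 6.21%, against 1.79% and 3.06% of all genes). DESeq2 called 2 higher and 9 lower (1.37% and 6.16%, against 0.904% and 1.39% of all genes). Leaving out any 1 library gave 7 to 10 lower and 1 to 5 higher at an unadjusted p, the fewest higher without 30d +P A or C. DESeq2 then called 6 to 10 lower, the fewest without 30d -P B. Several of the lower genes were cinnamoyl-CoA reductases (CCR), which make lignin precursors, on chromosome 4. Ebr04G064780 (503275708 to 503277639) had 8.25, 6.47 and 6.50 CPM in 30d -P, against 28.7, 25 and 24.8 CPM in 30d +P, with little spread in either group, at a log2 fold change of -1.89 ± 0.43 (SE) and a DESeq2 adjusted p of 2.2e-09 (2.4e-10 to 4.5e-06 with a library left out). Other copies near it, chosen after their values were seen, were mixed. Ebr04G065540 had 0, 0.131 and 0.701 CPM in 30d -P, against 7.38, 5.85 and 6.68 CPM in 30d +P. Ebr04G064870 had 0.144, 0.588 and 2.10 CPM in 30d -P, against 20.04, 12 and 6.41 CPM in 30d +P. Both were lower in every -P library. Ebr04G064560 had 0 counts in 30d -P, against 34, 17 and 13 counts in 30d +P, at least 7.27-fold lower in 30d -P at a floor of 3 counts per library. The most abundant copy of that region, Ebr04G064720, had 311, 242 and 286 CPM in 30d -P, against 416, 249 and 125 CPM in 30d +P. Ebr04G064880 had 32.4, 32.4 and 34.8 CPM in 30d -P, against 53.3, 24.6 and 33.6 CPM in 30d +P, with the groups overlapping in both. Flavonoid genes had a median of 0.63 over 30 tested genes, between 0.36 and 0.70 with a library left out, lowest without 30d +P A, and 0 with no count filter. Their summed level was 8699, 8087 and 7121 CPM in 30d -P, against 3455, 6349 and 4468 CPM in 30d +P. Every -P sum was above every +P sum. edgeR gave 2 higher and 1 lower at an unadjusted p (6.67% and 3.33%, against 1.79% and 3.06% of all genes). DESeq2 called 3 higher and 1 lower (10% and 3.33%, against 0.904% and 1.39% of all genes), with 1 to 6 higher when a library was left out (fewest without 30d -P B, most without 30d +P B). The leading gene, a chalcone synthase (Ebr01G026640), the entry enzyme of flavonoid synthesis, had 2591, 2594 and 2606 CPM in 30d -P, against 1789, 2092 and 1525 CPM in 30d +P, at a log2 fold change of 0.53. Without overlap, 6 genes of the class were higher and 4 lower (20% and 13.3%, against 6.82% and 8.34% of all genes). DESeq2 called 2 enzymes of hydroxylation higher and 1 lower (chosen after their values were seen). The 1 called lower, a flavonoid 3',5'-hydroxylase (Ebr01G051610), had 0 counts in each 30d -P library, against 42, 9 and 18 counts in 30d +P. Genes of that name went different ways (chosen after their values were seen). The most abundant, Ebr01G061940, had 499, 348 and 238 CPM in 30d -P, against 2.77, 201 and 57.4 CPM in 30d +P. Its groups did not overlap, but it was not called (log2 fold change 2.05 ± 2.04 (SE), DESeq2 adjusted p 0.39). In Ebr05G058370 the groups overlapped, at a log2 fold change of 0.01. Flavonoid 3'-monooxygenase (Ebr03G047030), which adds a hydroxyl to the flavonoid B ring, had 92.6, 72.4 and 70.8 CPM in 30d -P, against 19, 11.5 and 15.8 CPM in 30d +P, at a log2 fold change of 2.35 ± 1.09 (SE). Naringenin 3-dioxygenase (Ebr04G062950), which makes dihydroflavonols, had 1102, 1165 and 888 CPM in 30d -P, against 417, 682 and 450.4 CPM in 30d +P, at a log2 fold change of 1.03 ± 1.06 (SE). All -P values were above all +P values in these 2 enzymes. The third gene called higher by DESeq2 was a chalcone synthase at a low level (Ebr03G073780, chosen after its values were seen). It had 4.31, 4.84 and 5.29 CPM in 30d -P, against 1.05, 1.35 and 1.74 CPM in 30d +P (DESeq2 adjusted p 0.0056).

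**Figure D4:**
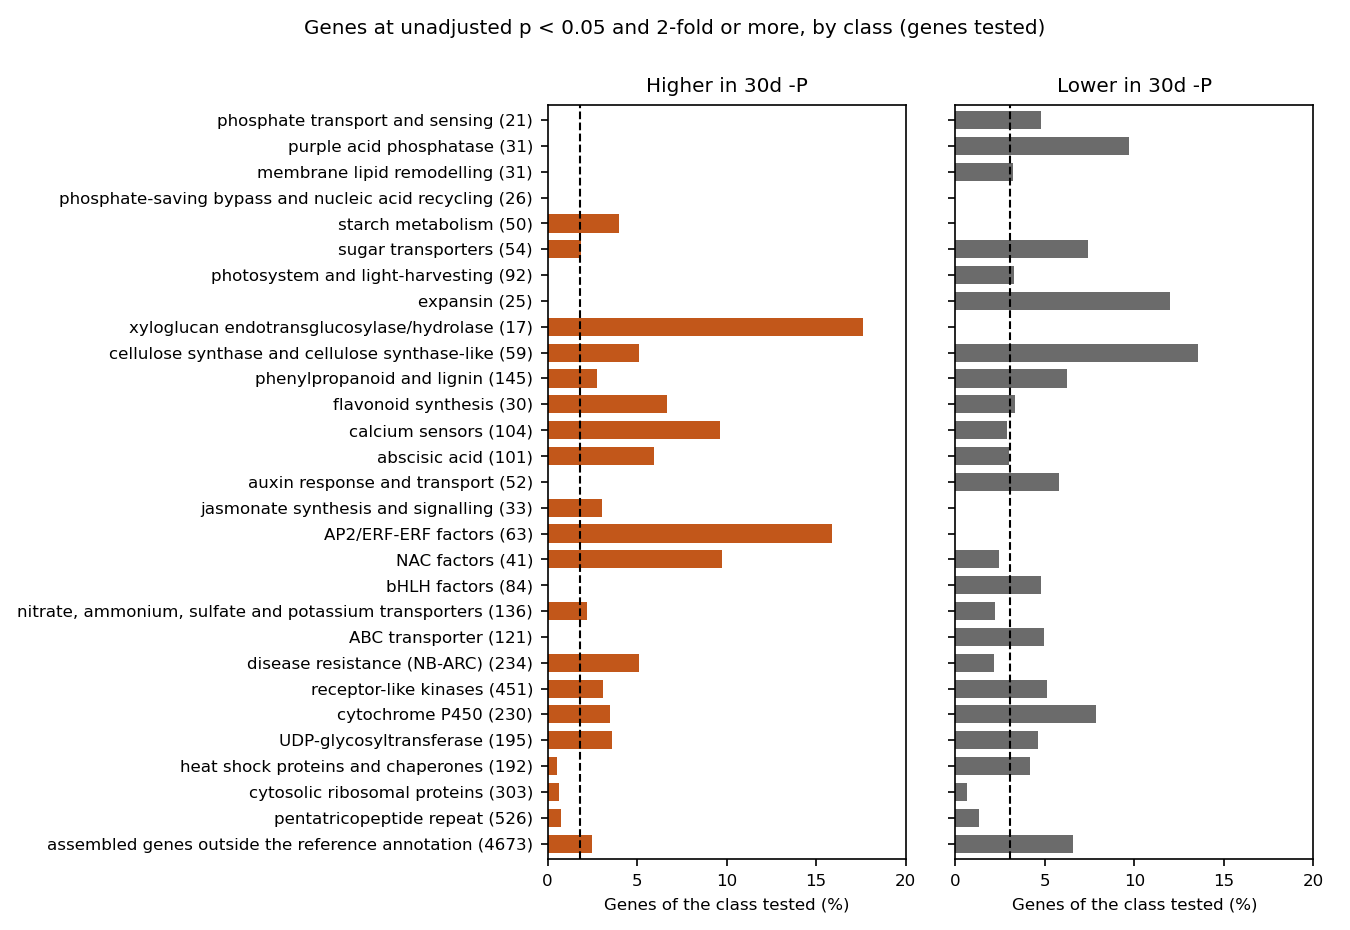
Percent of the tested genes of 29 classes (number tested in parentheses) that were higher (left) or lower (right) in 30d -P at an edgeR unadjusted p under 0.05 and at least 2-fold; dashed lines mark 1.79% and 3.06%, the shares of all genes tested. XTH (17.6%) and ERF genes (15.9%) have the longest bars for higher, and cellulose synthase-like genes (13.6%) and expansins (12%) for lower; classes with under 30 genes move by several percent with 1 gene.

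Among signalling classes, calcium sensors (calmodulin-like proteins, calcium-dependent kinases and CBL-interacting kinases) had 10 of 104 tested genes higher and 3 lower at an unadjusted p (9.62% and 2.88%, against 1.79% and 3.06% of all genes). DESeq2 called 6 higher and 0 lower (5.66% and 0%, against 0.904% and 1.39% of all genes). Without 30d -P B the higher counts were 4 by edgeR and 1 by DESeq2. Next to the KRP1 gene named above lie 2 more KRP1 copies on chromosome 3 (chosen after their values were seen): Ebr03G022520 had 43.9, 45.7 and 7.84 CPM in 30d -P, against 1.05, 3.52 and 8.35 CPM in 30d +P. Ebr03G022500 had 37.2, 19.5 and 0.701 CPM in 30d -P, against 0.725, 2.25 and 4.74 CPM in 30d +P. In both, -P A and B were high and -P C lay at the level of the +P libraries. The calcium-binding protein CP1 (Ebr01G010340), also named after its values were seen, had 14.4, 32.8 and 14.3 CPM in 30d -P, against 2.77, 5.62 and 5.94 CPM in 30d +P, and was called by DESeq2. CIPK1 (Ebr06G013730), a kinase that acts with calcineurin B-like sensors, was lower with 4.59, 3.33 and 2.81 CPM in 30d -P, against 14.8, 6.37 and 6.61 CPM in 30d +P. The most abundant sensor, a calmodulin (Ebr06G024930), had 443, 384 and 248 CPM in 30d -P, against 238, 396 and 295 CPM in 30d +P, with the groups overlapping.

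In the abscisic acid class, which includes all type 2C protein phosphatases, the 101 tested genes had 6 higher and 3 lower at an unadjusted p (5.94% and 2.97%, against 1.79% and 3.06% of all genes), at a median of -0.04. Without 30d -P B these counts were 2 and 0. Besides PP2C25, PP2C34 copies went both ways: Ebr01G007520 had 20.2, 15.4 and 13.6 CPM in 30d -P, against 36.1, 49.6 and 42 CPM in 30d +P, at a log2 fold change of -1.38 ± 0.52 (SE). Ebr06G026670 (named after its values were seen) had 73.9, 47.8 and 44.6 CPM in 30d -P, against 15.3, 20.9 and 16.4 CPM in 30d +P, at a log2 fold change of 1.66 ± 0.70 (SE). Both were called by DESeq2, the first at an adjusted p of 0.00054 (1.2e-05 to 0.025 with a library left out). CYP707A2 (Ebr04G000950), the hydroxylase that inactivates abscisic acid, had 88.4, 132 and 57 CPM in 30d -P, against 26, 21 and 31.5 CPM in 30d +P, at a log2 fold change of 1.82 ± 0.42 (SE) (DESeq2 adjusted p 0.00053, 1.2e-06 to 0.018 with a library left out). The most abundant member, the SnRK2-type kinase SAPK7 (Ebr04G055060), had 217, 207 and 203 CPM in 30d -P, against 270.1, 207 and 189 CPM in 30d +P.

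Jasmonate genes had a median of 0.45 over 33 tested genes of 46, and 78.8% lay above 0, against 49.3% of all genes. At an unadjusted p, 1 was higher (3.03%, against 1.79% of all genes), or 0 to 4 with a library left out. DESeq2 called 2 higher (5.56%, against 0.904% of all genes). The leading gene, a plastid 13-lipoxygenase (Ebr02G013700) that starts jasmonate synthesis, had 419, 656 and 2541 CPM in 30d -P, against 522, 548 and 953 CPM in 30d +P, with 30d -P C alone above the others. TIFY10B (Ebr01G043460), a JAZ repressor of jasmonate responses, had 2.58, 11 and 6.50 CPM in 30d -P, against 0.132, 0.375 and 1.27 CPM in 30d +P. TIFY10A (Ebr01G043470, named after its values were seen) had 51.8, 50.001 and 95.4 CPM in 30d -P, against 13.4, 40.6 and 36.5 CPM in 30d +P. Both kept the groups apart, but TIFY10A had a log2 fold change of 1.12 ± 1.04 (SE) and was not called. Auxin response and transport genes had a median of -0.33 over 52 tested genes of 129, with 0 higher and 3 lower at an unadjusted p (0% and 5.77%, against 1.79% and 3.06% of all genes). The lower count was 9 without 30d +P A against 0 without 30d -P B. Their most abundant gene, IAA16 (Ebr01G018500), a repressor of auxin-responsive genes, had 996, 679.6 and 379 CPM in 30d -P, against 447, 991 and 885 CPM in 30d +P, a spread that followed the first principal component and not the groups. The cytokinin class had 1 gene lower (5.26%, against 3.06% of all genes), gibberellin none and ethylene synthesis none at an unadjusted p, over 19, 11 and 8 tested genes. Their medians were -0.45, -0.26 and -0.17, the last up to 0.16 with a library left out. Without overlap, 4, 1 and 2 were lower (21.1%, 9.09% and 25%, against 8.34% of all genes) and 0 higher. Every -P sum was below every +P sum in each class, narrowly for gibberellin. Cytokinin genes summed to 379, 364 and 409 CPM in 30d -P, against 421, 436 and 459 CPM in 30d +P. Ethylene synthesis genes summed to 845, 953 and 982 CPM, against 1825, 1136 and 1149 CPM.

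Transcription factors of the ethylene response factor (ERF) family were the family with the most genes higher, 10 of 63 tested genes at an unadjusted p (15.9%, against 1.79% of all genes) and 0 lower, at a median of 0.30. With a library left out the higher count was 5 to 20, lowest without 30d -P B and highest without 30d +P C. DESeq2 called 2 higher (2.86%, against 0.904% of all genes), or 0 to 8 with a library left out. On chromosome 4, 11 tested ERF genes named as ERF5 or ERF100 (chosen after their values were seen) lie between 83639381 and 84109784, and all had a log2 fold change above 0. ERF5 (Ebr04G011530) had 354, 290.0 and 93.8 CPM in 30d -P, against 60.7, 67.5 and 88.2 CPM in 30d +P. Ebr04G011540 next to it had 136, 89.8 and 16.9 CPM in 30d -P, against 5.47, 22.1 and 32 CPM in 30d +P. In these and most of their neighbours -P A and B were high and -P C was near the +P range. NAC genes had 4 higher and 1 lower at an unadjusted p (9.76% and 2.44%, against 1.79% and 3.06% of all genes) among 41 tested. DESeq2 called 4 higher and 1 lower (9.52% and 2.38%, against 0.904% and 1.39%). Without 30d -P B, or without 30d +P B, 2 were higher at an unadjusted p and DESeq2 called none. NAC48 (Ebr04G026100) had 40.04, 53.1 and 22.3 CPM in 30d -P, against 10.4, 11.5 and 15.5 CPM in 30d +P.

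WRKY genes had 2 higher and 0 lower at an unadjusted p (5.88% and 0%, against 1.79% and 3.06% of all genes) among 34 tested, and WRKY24 (Ebr01G004220) had 66.3, 149 and 30.2 CPM in 30d -P, against 13.1, 11.3 and 27.6 CPM in 30d +P, with -P C only just above +P C. The GRAS gene CIGR1 (Ebr03G023150), induced by chitin in rice, had 77.1, 169.8 and 52.1 CPM in 30d -P, against 29.6, 24.7 and 38.9 CPM in 30d +P. The zinc finger gene C3H66 (Ebr01G067480) had 725, 753 and 268 CPM in 30d -P, against 199.5, 114 and 219 CPM in 30d +P. Their log2 fold changes were 1.68 ± 0.41 (SE) and 1.71 ± 0.38 (SE), with DESeq2 adjusted p of 0.028 (0.0013 to 0.21 with a library left out) and 0.019 (1.2e-05 to 0.28 with a library left out). The bHLH family had 0 higher and 4 lower at an unadjusted p (0% and 4.76%, against 1.79% and 3.06% of all genes) among 84 tested (1 to 8 lower with a library left out, fewest without 30d +P C). Among B3, C2H2, MYB, bZIP and homeobox HD-ZIP factors, 3, 1, 1, 0 and 1 were higher and 1, 4, 0, 0 and 0 lower at an unadjusted p, of 43, 52, 80, 38 and 20 tested. The shares higher were 6.98%, 1.92%, 1.25%, 0% and 5%, against 1.79% of all genes. Those lower were 2.33%, 7.69%, 0%, 0% and 0%, against 3.06% of all genes. The GARP family, which holds the PHR-type regulators of the phosphate response, had 0 higher and 1 lower at an unadjusted p (0% and 3.57%, against 1.79% and 3.06% of all genes) among 28 tested, and its most abundant gene PHL6 (Ebr05G001500) had 131, 85.9 and 60.5 CPM in 30d -P, against 50.03, 95.3 and 91.3 CPM in 30d +P.

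The transporters of other ions bear on the salts that also differed between the solutions. Of 136 tested genes, 3 were higher and 3 lower at an unadjusted p (2.21% each, against 1.79% and 3.06% of all genes). The median was -0.08 (0.08 without 30d +P A), and DESeq2 called 3 higher and 0 lower (2.05% and 0%, against 0.904% and 1.39% of all genes). The sulfate transporter SUT3 (Ebr05G040660) had 41, 32.5 and 40.9 CPM in 30d -P, against 22.8, 15.2 and 16 CPM in 30d +P, at a log2 fold change of 1.08 ± 0.34 (SE) (DESeq2 adjusted p 0.014, 0.00017 to 0.13 with a library left out). All -P values were above all +P values, with +P A closest to the -P range. NRT1/PTR family 3.1 (Ebr0G011500), of the nitrate and peptide transporter family, had 26.3, 33.2 and 37.3 CPM in 30d -P, against 135, 38.6 and 62.4 CPM in 30d +P; +P A alone was far above, and the log2 fold change of -1.29 was -0.65 without it. The most abundant gene, NRT1/PTR family 2.13 (Ebr03G061500), had 470.0, 367 and 206 CPM in 30d -P, against 393, 364 and 351 CPM in 30d +P. The cation/proton antiporter CHX19 (Ebr02G000330, named after its values were seen) had 6.89, 2.42 and 0.255 CPM in 30d -P, against 0.0659, 0.0750 and 0.134 CPM in 30d +P, with most of its level in -P A. ABC transporters had 0 higher and 6 lower at an unadjusted p (0% and 4.96%, against 1.79% and 3.06% of all genes) among 121 tested (3 to 7 lower with a library left out). Aquaporins had none in either direction of 24, with 1 called higher by DESeq2 (4.35%, against 0.904% of all genes).

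Enzymes of secondary metabolism were spread over both directions. Cytochrome P450 genes had 8 higher and 18 lower of 230 at an unadjusted p (3.48% and 7.83%, against 1.79% and 3.06% of all genes). The lower count was 11 to 18 with a library left out, fewest without 30d -P B and without 30d +P C. DESeq2 called 7 higher and 6 lower of 232 (3.02% and 2.59%, against 0.904% and 1.39% of all genes). In Sinopodophyllum, of the same plant family, some P450 enzymes make aryltetralin lignans. Among DESeq2's calls (0.904% of all genes higher and 1.39% lower), 5 genes named for them were all higher in 30d -P. These 5 were chosen after their values were seen, without a count of the tested genes so named, and give no direction for that group. Of these, an assembled gene (chromosome 3, 193549726 to 193586272), named as demethylepipodophyllotoxin synthase, had 107, 105 and 76.4 CPM in 30d -P, against 15.4, 29.8 and 29.4 CPM in 30d +P. Ebr03G000920, named as desmethylyatein synthase, had 368, 355 and 429 CPM in 30d -P, against 167, 216 and 144 CPM in 30d +P. Both had a difference of more than 2-fold on the group means. Another demethylepipodophyllotoxin synthase gene, Ebr03G025030, had 75.5, 16.2 and 0.765 CPM in 30d -P, against 0.0659, 0.300 and 0.401 CPM in 30d +P, with most of its level in -P A. UDP-glycosyltransferases, which attach sugars to small molecules, had 7 higher and 9 lower at an unadjusted p (3.59% and 4.62%, against 1.79% and 3.06% of all genes) among 195 tested. UGT88F3 (Ebr0G009530), named after a pear enzyme, had 28.8, 27.1 and 26.8 CPM in 30d -P, against 80.3, 52.7 and 53.7 CPM in 30d +P. Crocetin glucosyltransferase 3 (Ebr05G056070) had 14.5, 27 and 2.81 CPM in 30d -P, against 1.38, 0.975 and 2.47 CPM in 30d +P. The first was tight in 30d -P, whereas the second came close to the +P range in -P C. Germacrene D synthase (Ebr03G025150), which makes a sesquiterpene, had 66.2, 61.1 and 69.6 CPM in 30d -P, against 0.593, 16.3 and 21.7 CPM in 30d +P, near 0 in +P A alone, and its DESeq2 adjusted p was 0.17 (3.7e-09 to 0.56 with a library left out). The GPI-anchored lipid transfer protein LTPG31 (Ebr04G036020) had 24.4, 32.7 and 26.2 CPM in 30d -P, against 3.63, 8.77 and 9.41 CPM in 30d +P and a DESeq2 adjusted p of 0.0012 (5.4e-06 to 0.063 with a library left out).

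NB-ARC disease resistance genes had 12 higher and 5 lower of 234 at an unadjusted p (5.13% and 2.14%, against 1.79% and 3.06% of all genes). With a library left out these counts were 7 to 17 and 2 to 8. DESeq2 called 6 higher and 2 lower (2.47% and 0.823%, against 0.904% and 1.39% of all genes), or 15 higher without 30d +P A. Ebr02G068340, named as the resistance protein At4g27190, had 24.9, 39.3 and 19.4 CPM in 30d -P, against 13.7, 9.97 and 7.75 CPM in 30d +P. Ebr02G065400 with the same name had 44.6, 31.4 and 19.5 CPM in 30d -P, against 79.95, 53.8 and 69.6 CPM in 30d +P. Receptor-like kinases had 14 higher and 23 lower at an unadjusted p (3.1% and 5.10%, against 1.79% and 3.06% of all genes) among 451 tested (13 to 29 lower with a library left out), and the lectin receptor kinase LERK2 (Ebr04G004870) had 13.2, 11.4 and 1.21 CPM in 30d -P, against 0.725, 0.675 and 0.467 CPM in 30d +P. Heat shock proteins and chaperones had 1 higher and 8 lower at an unadjusted p (0.521% and 4.17%, against 1.79% and 3.06% of all genes) among 192 tested. The 303 tested cytosolic ribosomal protein genes had a median of -0.01 with 2 genes at an unadjusted p in each direction (0.660% each, against 1.79% and 3.06% of all genes). The 526 pentatricopeptide repeat genes, which process organelle RNA, had a median of -0.06. Of these, 4 were higher and 7 lower (0.760% and 1.33%), or 13 higher without 30d +P A. The plastid ribosomal protein S1 gene (Ebr01G012120) was lower in 30d -P, with 154, 61.3 and 64.1 CPM in 30d -P, against 202, 264 and 209 CPM in 30d +P, and a log2 fold change of -1.27 ± 0.34 (SE). The thiol protease SEN102 (Ebr06G057030), named after a gene of daylily petal senescence, had 10.3, 8.63 and 8.16 CPM in 30d -P, against 45.8, 25.1 and 21.2 CPM in 30d +P and a DESeq2 adjusted p of 0.0015 (0.00058 to 0.045 with a library left out).

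The pigment, chaperone, clock and detoxification genes below were picked by the naming rule, at most 1 per class and direction. They give no direction for a class. At an unadjusted p, chlorophyll genes had 0 higher and 1 lower of 36 tested (0% and 2.78%, against 1.79% and 3.06% of all genes). Terpenoid and carotenoid genes had 2 higher and 2 lower of 45 (4.44% each). Glutathione S-transferases had 0 higher and 3 lower of 44 (0% and 6.82%). A magnesium chelatase subunit H gene (Ebr05G031790), which takes protoporphyrin into chlorophyll synthesis, had 0.789, 0.261 and 0.574 CPM in 30d -P, against 13.2, 2.92 and 5.54 CPM in 30d +P. Zeaxanthin epoxidase (Ebr04G072710), of the xanthophyll cycle, had 0, 0.261 and 0 CPM in 30d -P, against 1.19, 15.4 and 13.5 CPM in 30d +P. In both the groups did not overlap, with the +P values of the first highest in A and those of the second lowest there. An HSP70 chaperone gene (Ebr03G059670) had 0, 0.784 and 1.15 CPM in 30d -P, against 4.61, 5.32 and 5.21 CPM in 30d +P. A glutathione S-transferase gene (Ebr01G005110) had 2.44, 6.41 and 2.42 CPM in 30d -P, against 6.66, 11.8 and 10.6 CPM in 30d +P. The clock gene APRR5 (Ebr01G044190), a repressor in the Arabidopsis oscillator, was higher, with 5.24, 9.28 and 17.3 CPM in 30d -P, against 3.1, 4.87 and 4.61 CPM in 30d +P and a log2 fold change of 1.34 ± 0.53 (SE). The clock class had 1 higher and 0 lower at an unadjusted p (2.27% and 0%, against 1.79% and 3.06% of all genes) among 44 tested.

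Beyond the classes, some genes with other roles were called by DESeq2 (named after their values were seen). Some had little spread in either group, whereas the F-box gene and PHOSPHATE-INDUCED 1 below spread widely within a group. Ebr04G014410, named as the RNA-binding Tudor nuclease 1, had 51.8, 50.6 and 46.7 CPM in 30d -P, against 141, 133 and 118 CPM in 30d +P. RAD23c (Ebr02G041150), which delivers ubiquitinated proteins to the proteasome, had 38.7, 39.5 and 37.2 CPM in 30d -P, against 79.1, 90.6 and 82.3 CPM in 30d +P. The plastid acyl carrier protein 1 (Ebr02G006670), which holds growing fatty acids, had 5.45, 7.32 and 9.37 CPM in 30d -P, against 31.8, 32 and 25.3 CPM in 30d +P. In these 3 genes the +P values, library A included, lay 2-fold or more above the -P values. In the other direction, the Ran-binding protein 1 gene Ebr01G068450, of the nuclear transport machinery, had 63.2, 59.5 and 63.3 CPM in 30d -P, against 17.9, 26.8 and 15.2 CPM in 30d +P. The F-box gene Ebr02G011030 had 33.7, 49.4 and 62.2 CPM in 30d -P, against 0.989, 5.47 and 5.21 CPM in 30d +P. PHOSPHATE-INDUCED 1 (Ebr03G050850), a tobacco gene found by its response to phosphate resupply in cultured cells, had 229, 125 and 15 CPM in 30d -P, against 1.71, 15.5 and 10.8 CPM in 30d +P, with -P C inside the +P range.

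Some of the genes higher in 30d -P belong to families that touch and wounding induce within minutes to hours in other plants, and their values per library stand beside the classes that share them. A list of 132 genes with such names, 58 of them tested, was drawn up with values of these libraries known, so its counts are a description and no independent evidence of a direction. Of the 58, 50 had a log2 fold change above 0 (median 1.60, against -0.01 for all genes), 18 were higher and 1 lower at an unadjusted p (all genes 1.79% and 3.06%), and DESeq2 called 14 higher and 0 lower (all genes 0.904% and 1.39%). XTH22, known as TOUCH 4 in Arabidopsis, summed to 74.8, 73.4 and 8.61 CPM in 30d -P, against 0.0659, 2.62 and 2.54 CPM in 30d +P. ERF5, ERF1A and like names summed to 727, 661 and 192 CPM in 30d -P, against 117, 133 and 203 CPM in 30d +P. ATAF-type NAC genes summed to 208, 288 and 83.4 CPM in 30d -P, against 51.9, 42.2 and 62.1 CPM in 30d +P. In these sums -P A and B were high, and -P C was above the highest +P value for XTH22, just below it for the ERF genes and just above it for the NAC genes. The zinc finger genes ZAT10, ZAT11 and ZAT12 summed to 117, 156 and 29.1 CPM in 30d -P, against 9.69, 28.4 and 52.2 CPM in 30d +P. The WRKY33, WRKY40 and WRKY24 names summed to 66.7, 154 and 32.1 CPM in 30d -P, against 13.9, 11.4 and 28.4 CPM in 30d +P. In both the highest +P library was C, above -P C for the zinc finger genes and just below it for the WRKY names. The lipoxygenase 2 type genes ran otherwise, with 424, 732 and 2666 CPM in 30d -P, against 539, 569 and 1011 CPM in 30d +P, highest in -P C. DREB1 genes had 270.4, 425 and 359.6 CPM in 30d -P, against 383, 149.959 and 164 CPM in 30d +P, with +P A inside the -P range. TIFY genes had 385, 382 and 523 CPM in 30d -P, against 295, 408 and 343 CPM in 30d +P. The part of handling at harvest in these differences was not tested.

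Markers of leaf cell types were checked in the same libraries. Mesophyll markers (Rubisco small chain and light-harvesting proteins) were abundant everywhere, with 50791, 48402 and 59661 CPM in 30d -P, against 54151, 80767 and 51279 CPM in 30d +P. Phloem markers, of which 4 of 5 genes were tested, had 215, 335 and 62.2 CPM in 30d -P, against 25.1, 249.7 and 289.8 CPM in 30d +P, with the 2 lowest sums in -P C and +P A. Xylem and secondary wall markers, 65 tested of 103, had 5672, 4226 and 2864 CPM in 30d -P, against 1772, 3918 and 3866 CPM in 30d +P, again lowest in these 2 libraries. Guard cell and epidermis markers had 2923, 1877 and 1589.9 CPM in 30d -P, against 1419.9, 2176 and 2322 CPM in 30d +P. Markers of dividing cells had 979.7, 979 and 1097 CPM in 30d -P, against 1003, 1284 and 1016 CPM in 30d +P. Flower markers, 3 tested of 5, stayed at 7.46 to 19.5 CPM in 30d -P and 7.78 to 24.4 CPM in 30d +P. The phloem, xylem and expansin sums thus followed the first principal component, and in none of the marker lists were the -P and +P libraries fully apart. Whether the cell type makeup has a part in the class results was not tested.

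**Figure D5:**
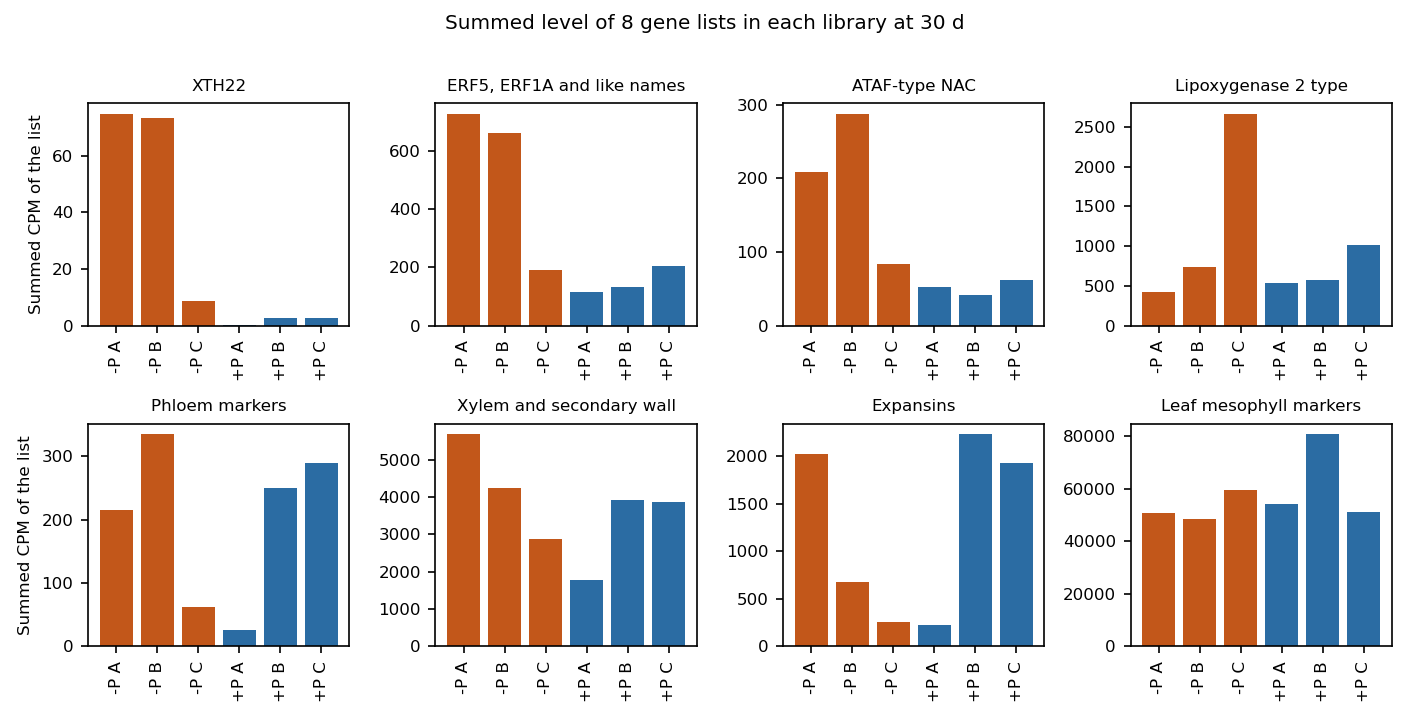
Summed CPM (y axis, from 0, scales differ) of 8 gene lists in each of the 6 libraries at 30 d, orange bars 30d -P and blue bars 30d +P. XTH22, ERF and NAC sums are high in 30d -P A and B and low in the 30d +P libraries, lipoxygenase sums are high in 30d -P C alone, and phloem, xylem and expansin sums are low in 30d -P C and 30d +P A together.

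Genes that the authors assembled outside the reference annotation made up 226 of DESeq2's 569 calls, where they were 4791 of the 24774 genes it tested. Of these calls, 73 were higher and 153 lower (1.52% and 3.19%, against 0.904% and 1.39% of all genes). edgeR tested 4673 of them among its 24307 genes. At an unadjusted p edgeR gave 117 higher (2.50%, against 1.79% of all genes) and 306 lower (6.55%, against 3.06%), at a median of -0.18. With a library left out the lower count was 179 to 323, lowest without 30d -P B. Some genes were read in 1 group alone (examples chosen after their values were seen): 22 had 0 counts in 30d -P and at least 10 in each +P library, 18 of them assembled, and 11 had the reverse pattern, 9 of them assembled. Of these 11, the gene at chromosome 6, 153306457 to 153312931 had 258, 241 and 256 counts in 30d -P and 0 in each +P library, at least 81.2-fold higher in 30d -P at a floor of 3 counts per library. On the other side, the gene at chromosome 4, 189670573 to 189671419 had 0 counts in 30d -P, against 166, 118 and 76 counts in 30d +P, at least 41.3-fold lower in 30d -P. Both lacked a Swiss-Prot name. Among reference genes, Ebr03G060370, named as myosin-binding protein 5, had 149, 32 and 45 counts in 30d -P and 0 in 30d +P. SWEET1 (Ebr01G026000), a sugar transporter, had 0 counts in 30d -P, against 35, 32 and 12 counts in 30d +P. Reads from 30d -P A and B made up nearly all of a further pair: the gene at chromosome 2, 390459780 to 390473093 had 199.9, 68.2 and 0.191 CPM in 30d -P, against 0, 0 and 0 CPM in 30d +P. The gene next to it, at chromosome 2, 390457733 to 390459502, had 146, 43.9 and 0.319 CPM in 30d -P, against 0.0659, 0 and 0 CPM in 30d +P. These 2 genes (chosen after their values were seen) were at or near 0 in the other 4 libraries.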

How the data were processed

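Leaf mRNA was sequenced in 12 libraries of the series, 6 of them at 30 d. The authors aligned reads with HISAT2 (2.0.5) to the E. pubescens reference genome, assembled further transcripts with StringTie (1.3.3b) and deposited whole-number counts per gene, with a second table of FPKM. FeatureCounts (1.5.0-p3) is named in the submitters' processing notes. The genome version, the strand setting and the treatment of reads that map to several genes are not given in the sources used here, so copies of a gene family, overlapping genes and antisense genes are uncertain. The deposited FPKM served only to compare levels between genes.

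Counts were tested with edgeR 4.0.16 (R 4.3.3): TMM scaling, filterByExpr on the 4 groups, and a robust quasi-likelihood fit of all 12 libraries (8 residual degrees of freedom), with the contrast 30d -P minus 30d +P. Benjamini-Hochberg adjustment ran over all genes tested. A call needed an adjusted p of at most 0.05 and a log2 fold change of at least 1 in size. A gene that passed the filter only through the group where it is high had to differ. DESeq2 1.42.0 on the 6 libraries, DESeq2 on all 12, limma-voom (limma 3.58.1), other filters and scalings, a replicate block and leaving out each library were alternatives. The fits were tested on simulated counts with known fold changes, where DESeq2 on 6 libraries also called many genes that had been left unchanged, more than edgeR did.

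Classes follow Swiss-Prot names and transcription factor families in the table. Named genes had non-overlapping CPM, at least 5 CPM on average in either group, an unadjusted p under 0.05 and a 2-fold difference: the 8 with the smallest p in each direction and the first in each direction per class. The most abundant gene per class and phosphate genes with a mean of at least 20 CPM were added, with values and no test, and genes from other lists are marked as chosen after their values were seen. The members and lists were chosen with earlier results of these data known. Class counts without each library were chosen after seeing the data. Fold bounds used a floor of 3 counts per library.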

Additional observations from a re-analysis of the deposited data

How the results depend on the processing

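edgeR called 0 genes higher and 0 lower under RLE scaling, no count filter, a minimum of 1 CPM, the 6 libraries alone, no minimum fold change and with any library left out. Its smallest adjusted p was 0.610 on 12 libraries and 0.185 on the 6 libraries. Other tools made calls. DESeq2 called 224 genes higher and 345 lower on the 6 libraries, DESeq2 on all 12 libraries called 101 higher and 172 lower, and limma-voom with sample weights called 117 higher and 281 lower. With a library left out, DESeq2 called 319 higher and 417 lower (30d -P A left out), 67 and 200 (-P B), 287 and 353 (-P C), 297 and 584 (30d +P A), 179 and 242 (+P B), and 173 and 219 (+P C). At an unadjusted p under 0.05 and 2-fold, the 435 higher and 745 lower genes of edgeR became 681 higher with no count filter. DESeq2 then gave 984 higher and 1383 lower on the 6 libraries and 733 higher and 1121 lower on all 12, and limma-voom gave 1232 higher and 1656 lower. With a library left out, edgeR gave 265 to 530 higher and 488 to 787 lower, with the fewest in both directions without 30d -P B. The cause of these differences was not tested.

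With the replicate letter as a replicate block, edgeR called 0 genes higher and 0 lower, and 402 higher and 674 lower at an unadjusted p. The letters gave no sign of pairing: the deviations of same-letter libraries from their group means correlated across genes at -0.336 (A), -0.0711 (B) and -0.325 (C). Deviations within so small a group depend on each other, so these values cannot show that libraries of a letter share nothing. For the 145 named genes, values in 109 gene and alternative pairs passed the threshold where edgeR's did not. In 9 pairs, all of genes given with values and no test, the log2 fold change moved by more than the replicate spread. The other 1912 pairs were unchanged, by a rule that differed with the kind of gene. Genes named by test kept their sign and stayed uncalled, at any size of shift, and the others stayed within the replicate spread. Class medians moved in 106 of 1022 cases. Counts per class are small, and 1 gene often decides them.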
